A study of Homo sapiens with 11 samples.

Results

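The colony stimulating factors are secreted proteins that instruct blood progenitors and mature myeloid cells to survive, divide and differentiate. CSF1 (macrophage factor) binds the receptor tyrosine kinase CSF1R, CSF2 (granulocyte-macrophage factor) binds a pair of CSF2RA with the shared signalling chain CSF2RB, and CSF3 (granulocyte factor) binds CSF3R. They share a name and a kind of function rather than a common ancestor, and many non-blood cells, epithelial tumour cells among them, make them after inflammatory stimuli, when NF-kappaB acts on the promoters and AU-rich elements in the transcripts set how long these last. The 3 genes CSF1, CSF2 and CSF3 were taken by symbol, out of 20500 entries in the authors' table, and all 3 were found in it.

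The samples were cultures of 786-0, an established human line from a renal cell carcinoma of clear cell type, in which the tumour suppressor VHL is not functional. There were 6 samples in the DMSO vehicle (control) and 5 in DMSO with everolimus, an inhibitor of the kinase mTOR, at a labelled dose of 10um, and both groups were kept for 4 h. The labels give no information on separate cultures, so the p-values measure no more than the variation among these samples, part or all of which could be technical. Levels are estimated read counts scaled by the authors to an upper quartile of 1000 (units), and 1 read was worth 0.307 to 1.05 units. Controls held 14230690 to 36828274 estimated reads and everolimus libraries 29760923 to 52522887. Of 8 markers of renal carcinoma lines, 7 passed the filter on low values and CA9 did not (0 to 3.15 units in the controls). Of 23 markers of blood, endothelial and fibroblast cells, 6 were listed at 0 in every library and 4 passed the filter. These 4 were CD68 and the fibroblast markers COL1A1, PDGFRB and LUM (control means of 75.5, 36.6 and 89.8 units). The fibroblast marker DCN reached at most 2 reads in a library. In such bulk samples more cells with a transcript and more transcript per cell cannot be told apart.

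Everolimus was followed by a rise of CSF2 from near nothing and by a rise of CSF1 of about 2.35-fold, while CSF3 stayed at or near 0 in both groups. Of 12668 genes tested, 27.8% were called higher, 27.4% lower and 55.2% in either direction, so a call alone does not set a gene apart, and the sizes are given beside each call. The tests used limma on log2(value + 1), and the Benjamini-Hochberg adjustment covered every tested gene, with a threshold of 0.05.

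The CSF2 promoter is shown because the largest change of the 3 genes was at this locus. The promoter sequences used held neither CSF1 nor CSF3, so these genes were not searched. The stretch is the 250 bases before the transcription start on chromosome 5 (chr5:132073539-132073788, plus strand, RefSeq sequence of GRCh38.p14, a later build than the hg19 named by the submitters). Capitals mark, from left to right, the CK-1 element (GAGATTCCAC), the kappaB site described for this promoter (GGGAACTACC, here on the minus strand and so printed as its reverse complement) and a TATA-like box (TATTTAA).
CSF2: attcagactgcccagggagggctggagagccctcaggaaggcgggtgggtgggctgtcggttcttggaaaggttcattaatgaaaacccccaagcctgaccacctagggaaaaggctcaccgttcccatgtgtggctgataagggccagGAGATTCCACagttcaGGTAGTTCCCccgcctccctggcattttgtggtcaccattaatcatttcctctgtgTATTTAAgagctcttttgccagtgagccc

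The CK-1 element began 101 bases before the start, the kappaB site spanned bases 85 to 76 before it, and the TATA-like box began 29 bases before it. Searched on both strands in the 250 bases before the start of all 35116 promoters of the table, GAGATTCCAC was found in 0.0399%, GGGAACTACC in 0.0256% and TATTTAA in 4.17%. The letters of GAGATTCCAC and GGGAACTACC were read from this CSF2 sequence at the positions given, so their match in CSF2 was certain. Their shares describe only how rare these strings are. The AP-1 site TGANTCA, held by 6.57% of promoters, was not matched in this window of CSF2. The loose kappaB form GGGNNNNNCC was made from that kappaB site by keeping its end bases and leaving the middle free. It was therefore bound to match CSF2, and it was held by 54.4% of promoters. A match is a description of letters and not a measured binding site.

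The CSF2 transcript also carries a dense AU-rich element, the kind of sequence that marks cytokine transcripts for fast decay, and a stretch of 30 bases of it is shown because several genes below act on such elements. The bases are numbers 99 to 70 counted back from the transcript's 3′ end (GENCODE v29, GRCh38, chromosome 5), with each base of the repeated pentamer ATTTA in capitals.
CSF2: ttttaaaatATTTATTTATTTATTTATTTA

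This stretch holds 5 overlapping copies of ATTTA, and the last 300 bases of the transcript hold 8. Only 0.0153% of 19599 coding genes (3 genes, CSF2 included) had 8 or more copies in the last 300 bases of their longest coding transcript. The same window held 3 copies in CSF1 and 0 in CSF3, whose longest coding transcript has 7 copies farther from its end. The nonamer ATTTATTTA was in this window of CSF2 but not of CSF1 or CSF3, and 1.32% of all genes held it there.

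CSF2 was close to undetected in the controls, with 1, 2, 1, 0, 4 and 4 estimated reads in controls 1 to 6. With everolimus the 5 libraries held 719, 867, 927, 462 and 654 reads. In units the controls ran from 0 to 1.82 and the everolimus libraries stood at 299.96, 302.7, 284.2, 243.5 and 260.0, so that the lowest everolimus library was far above the highest control. Groups that did not overlap were found in 37.9% of all tested genes, and in 20.3% with everolimus higher.

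The mean of CSF2 rose from 1.04 ± 0.700 units (SD, n = 6) to 278 ± 25.7 (n = 5). On the log2(value + 1) scale the fold change was 7.18 (SE 0.240, limma adjusted p = 9.16e-12), the second highest of all tested genes. The ratio of reads, 3629 of 207891663 with everolimus against 12 of 152616948 in the controls, was 222 after division by depth (exact 95% interval 127 to 430, for counting error only). How large the change is depends on how the near-absence in the controls is treated. With a pseudocount of 0.1 the log2 fold change was 8.40 and with 10 it was 4.70, and the call held in both. CSF2 passed the filter on low values, 10 units or more in 5 or more samples, through the everolimus libraries only, so among genes that passed in this way a difference was bound to appear. The filter only selects genes, so without it the fold change was bound to be 7.18 (limma adjusted p = 3.74e-11).

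**Figure D1:**
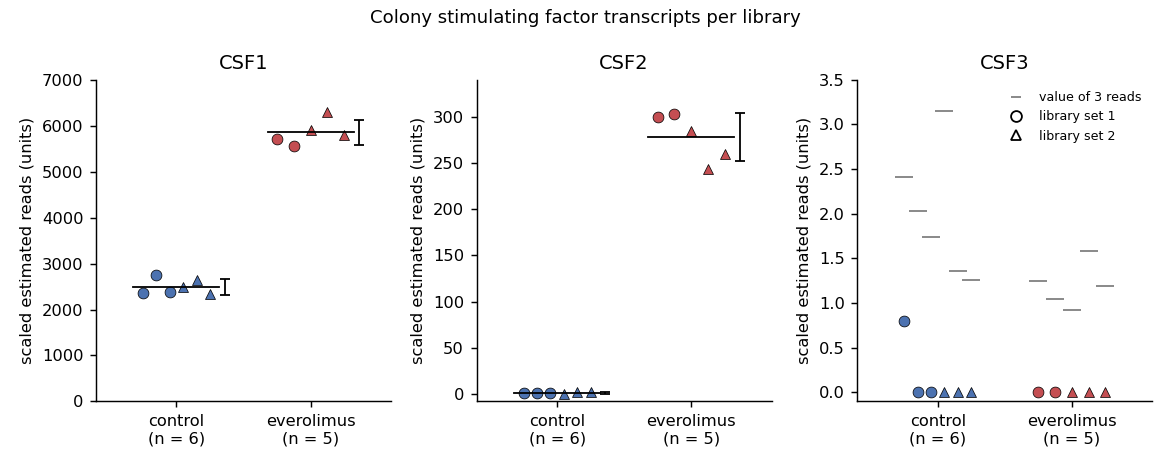
Scaled estimated reads (units) of CSF1, CSF2 and CSF3 in each library, with separate linear axes, lines for group means and bars for SD (CSF1 and CSF2; n = 6 controls and 5 everolimus), circles and triangles for library sets 1 and 2, and grey dashes for the value of 3 reads. CSF1 lies between 2337 and 2742 units in the controls and between 5555 and 6288 with everolimus, CSF2 moves from at most 1.82 to at least 243.5, and CSF3 has 1 read in 1 control library.

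CSF1 was already well expressed without the drug. The controls ran from 2337 through a median of 2435 to 2742 units, and the everolimus libraries stood at 5719, 5555, 5902, 6288 and 5796. All 5 everolimus libraries lay above all 6 controls, and within each group the libraries were close, with a coefficient of variation of 6.76% and 4.69%. The mean rose from 2494 ± 169 units (SD, n = 6) to 5852 ± 275 (n = 5), a log2 fold change of 1.23 (SE 0.047, 95% interval 1.13 to 1.33, limma adjusted p = 3.66e-11). In rank this was 250 of 12668 tested genes by fold change, so 1.97% of them rose more, and in level with everolimus CSF1 ranked 438, against 8257 for CSF2.

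Since a long transcript gives more reads than a short one, levels of the 2 genes were compared per 1000 bases of their longest coding transcript (GENCODE v29; 4210 bases for CSF1, 787 for CSF2). With everolimus CSF1 stood at 1390 units and CSF2 at 353 units per 1000 bases, a ratio of 3.93, and in the controls at 592 and 1.32. If all CSF1 reads came from its shortest coding transcript (1083 bases), the ratio with everolimus would be 15.3. The table gives 1 value per gene, so which of the 4 coding CSF1 transcripts, soluble or membrane-bound, were present is not known.

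CSF3 was not detectable in most libraries. A single estimated read was found in control 1 (0.803 units), and the value was 0 in the other 5 controls and in all 5 everolimus libraries. Over the everolimus libraries together, a count of 0 in 207891663 reads allows up to 0.0144 reads in 1000000 (3 reads in all), where CSF2 had 17.5. The gene did not reach the filter, and an exact two-sided permutation test over the 11 samples gave p = 1 for a log2 difference of -0.14. With a single read among 11 libraries this test could not have given a small p for CSF3, so it says nothing about whether the groups differ. For CSF1 and CSF2 the exact p was 0.00433, the smallest that the 462 possible splits allow. A change of CSF3 below the limit given by a count of 0 would not have been seen at this depth.

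The labels name no batch, but the libraries fell into 2 sets by the share of their low values that were whole reads, 1 set with controls 1 to 3 and everolimus 1 and 2, the other with controls 4 to 6 and everolimus 3 to 5. The second principal component of expression (22.2% of the variance) separated the same libraries, and what the sets stand for is not known. Within the first set CSF1 rose by a log2 of 1.18 (adjusted p = 1.88e-07) and within the second by 1.27 (adjusted p = 5.93e-10). CSF2 rose by 7.33 (adjusted p = 1.99e-08) and 7.07 (adjusted p = 5.93e-10). Among the everolimus libraries CSF2 was higher in the first set (301 ± 1.97 units, n = 2) than in the second (262.6 ± 20.5, n = 3), but the limma test for a different drug effect between the sets gave an adjusted p of 0.958 for CSF2 and 0.909 for CSF1.

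**Figure D2:**
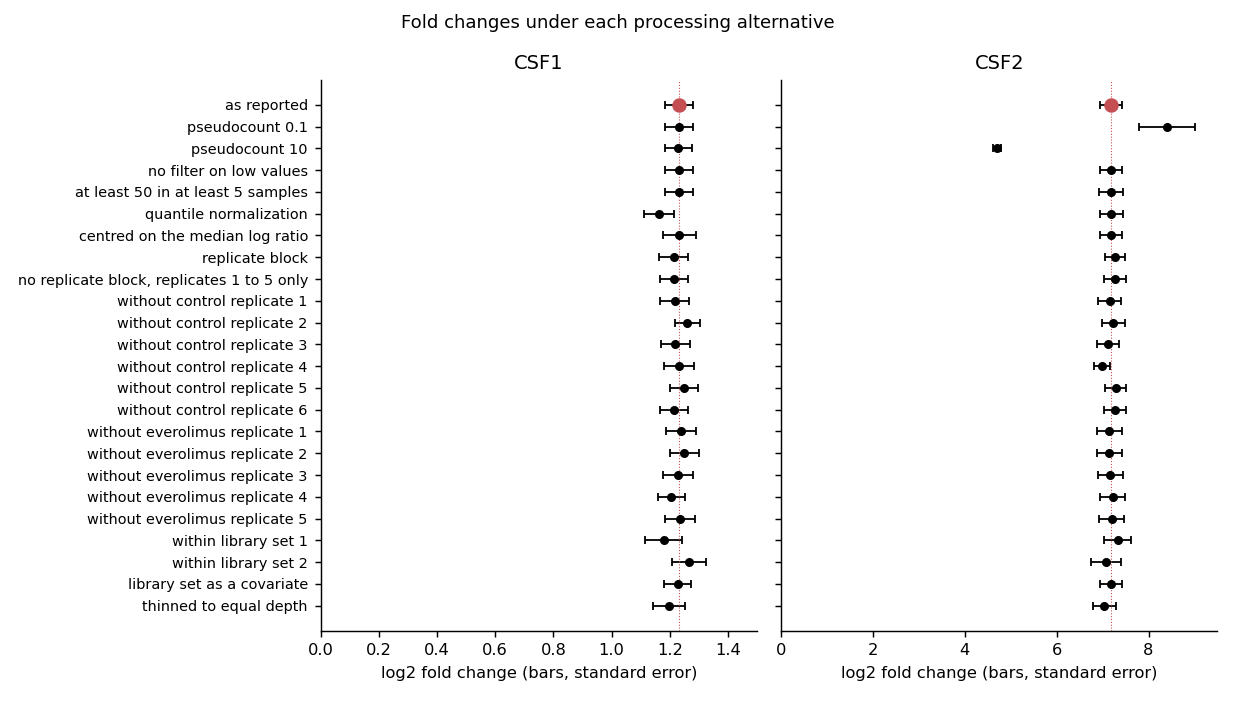
Log2 fold changes of CSF1 and CSF2, everolimus against control, with standard errors as bars, as reported (large red point, dotted line) and under each processing alternative. CSF1 stays between 1.16 and 1.27, and CSF2 between 6.99 and 7.33 except with a pseudocount of 0.1 (8.40) or 10 (4.70).

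The receptors were low or not seen in these cells. CSF3R and CSF2RA were listed at 0 in all 11 libraries. CSF2RA lies in a pseudoautosomal region, where reads can match both sex chromosomes, and the part of this in its zeros was not tested. Of 16 coding genes of these regions in the table, CSF2RA and SHOX were at 0 throughout, and IL3RA, a receptor chain for IL3, reached at most 8 reads. CSF1R ran from 24.1 through a median of 32.8 to 38.1 units in the controls and stood at 42.1, 32.5, 42.3, 28.5 and 38.6 with everolimus. Its groups overlapped and it did not pass the test (log2 fold change 0.20, SE 0.151, 95% interval -0.13 to 0.52, limma adjusted p = 0.294).

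CSF2RB, the chain that carries the signal of CSF2, was the receptor gene that rose. The controls ran from 8.78 through a median of 11.3 to 18.6 units, and the everolimus libraries held 29.2, 32.1, 27.9, 34.8 and 38.2. The groups did not overlap, and the log2 fold change was 1.35 (SE 0.186, limma adjusted p = 2.51e-05). These values are small, at most 41 reads in a control and 96 in an everolimus library.

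Related growth factors and receptors went their own ways. KITLG, the stem cell factor that binds KIT, fell from 1688 ± 149 units (SD, n = 6) to 881 ± 39.1 (n = 5; log2 -0.93, SE 0.058, limma adjusted p = 5.86e-09), while KIT itself was at most 3.48 units in any library. IL34, the other ligand of CSF1R, was below the filter, at 0.803 to 4.06 units in the controls and at 8.76, 8.38, 6.44, 5.80 and 16.3 with everolimus. The groups did not overlap, and without the filter its log2 fold change was 1.69 (SE 0.306, limma adjusted p = 0.000467). Of 7 related ligands 2 passed the filter, KITLG and FLT3LG, the ligand of FLT3. FLT3LG rose by 0.43 (adjusted p = 0.0261), a call lost without control 1 (0.0508), everolimus 4 (0.0553) or everolimus 5 (0.0794) within each library set (0.230 and 0.191) and after thinning to equal depth (0.0588). IL3 and IL5, whose receptors share CSF2RB, reached at most 2 reads in a library. Of 6 related receptors EPOR alone passed the filter. EPOR fell by 0.27 on the log2 scale (adjusted p = 0.0277), a call lost without any of controls 3, 4 and 6 or everolimus 1, 3 and 4 (adjusted p = 0.0510 to 0.0760) and within the first set (0.556).

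Of 23 genes that carry signals from these receptors, 20 passed the filter, 9 rose and 4 fell, a share called of 65% against 55.2% of all tested genes, with a median log2 fold change of 0.10 against -0.01. STAT5A, a transcription factor activated by all these receptors, rose from 12.9 ± 3.77 units (SD, n = 6) to 125.5 ± 11.9 (n = 5; log2 3.22, SE 0.155, limma adjusted p = 3.89e-10). Its near-identical relative STAT5B, with which it can share reads, rose by 0.16 (adjusted p = 0.00189). That call was lost in the second library set (0.101) and after thinning to equal depth (0.0725). PIK3CD, a lipid kinase subunit of white blood cells, rose by 1.40, the adaptor GAB2 by 0.98 and JAK1 by 0.27. Of the feedback inhibitors, SOCS1 rose by 1.78, SOCS2 by 0.37 (limma adjusted p = 0.000981) and SOCS3 by 0.46. SOCS1 held 5.62 to 10.04 units in the controls and 21.5 to 35.8 with everolimus. It passed the filter through the everolimus libraries. CISH, another of these inhibitors, fell by 0.94 on the log2 scale (adjusted p = 9.9e-05). Within the first library set 9 rose and 1 fell, and within the second 7 rose and 1 fell.

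**Figure D3:**
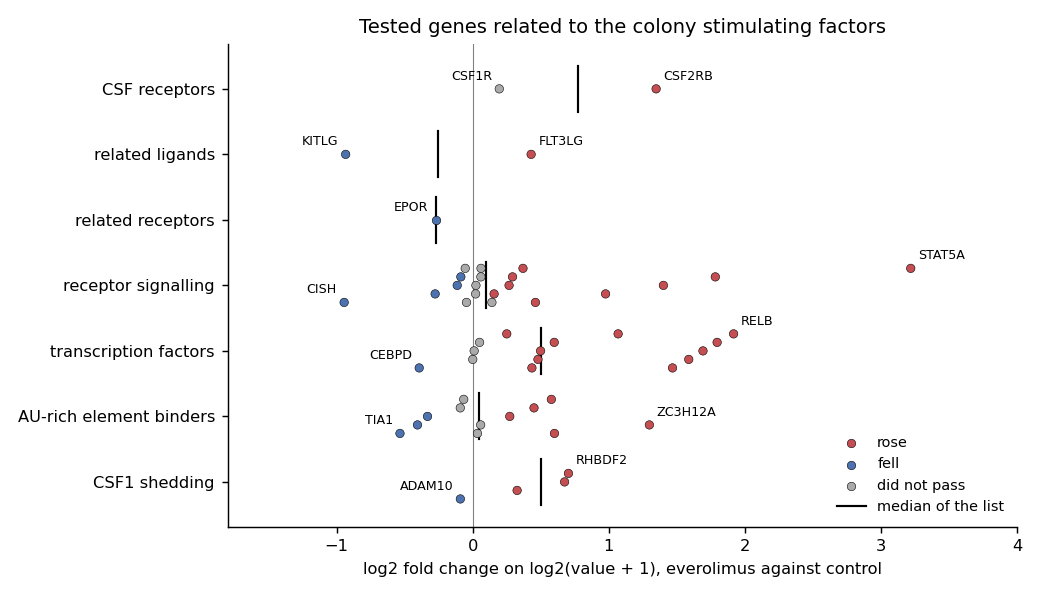
Log2 fold changes on log2(value + 1), everolimus against control, of the tested genes in each related list, coloured by call (adjusted p under 0.05), with a black line at the list's median and names at both ends. STAT5A (3.22) is the highest point, and the transcription factors have the highest median (0.50) of the lists with more than 5 tested genes.

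Of 18 transcription factors known to act at promoters of these factors, 15 passed the filter, 11 rose and 1 fell (80% called against 55.2%), with a median log2 fold change of 0.50. All 5 NF-kappaB subunits rose. RELB had a log2 fold change of 1.92, NFKB2 of 1.69, NFKB1 of 1.07 and RELA of 0.60, and REL had 0.48, a call lost within the first library set (adjusted p = 0.191). ETS1, whose family acts at the CSF2 promoter in T cells, rose from 2105 ± 136 to 7306 ± 435 units (log2 1.80, SE 0.049, limma adjusted p = 1.22e-12). The AP-1 subunits JUNB (1.59) and FOSL1 (1.47) rose as well. CEBPB (0.05, adjusted p = 0.598) and SP1 (0.00, adjusted p = 0.992) did not pass. CEBPD fell by 0.39 on the log2 scale (adjusted p = 0.0425), a call lost without any of controls 3 to 6 or everolimus 1 to 4 (adjusted p = 0.0640 to 0.102), within the first set (0.360) and without the filter (0.0611). NFATC1 and NFATC2, the T cell activators of CSF2, reached at most 3 reads in a library. Values of these transcripts do not measure the activity of their proteins, and their part in the rise of CSF2 or CSF1 was not tested.

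All 12 genes for proteins that bind AU-rich or related elements passed the filter, of which 5 rose and 3 fell (5 and 5 after quantile normalization), with a median of 0.05. The share called was 66.7%, against 55.2% of all tested genes. ZC3H12A, an endonuclease that cuts cytokine transcripts, rose from 194 ± 17.2 to 478 ± 16.5 units (log2 1.30, SE 0.063, limma adjusted p = 4.45e-10), and the decay factors RC3H1 (0.60) and RC3H2 (0.58) rose too. ZFP36, which targets the CSF2 transcript for decay, fell by 0.33 on the log2 scale (adjusted p = 0.00389), while its family members ZFP36L1 (0.27, adjusted p = 8.28e-05) and ZFP36L2 (0.45, adjusted p = 2.46e-05) rose. The translational silencers TIA1 (-0.53) and TIAL1 (-0.41) also fell. The stabilizer ELAVL1 (-0.07, adjusted p = 0.0684) and the decay factor HNRNPD (0.06, adjusted p = 0.136) did not pass. ELAVL1 passed without everolimus 5 (0.0431), after quantile normalization (0.00575) and after thinning (0.0151), and HNRNPD without control 5 (0.0472).

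Of 5 genes of CSF1 release 4 were tested, of which 3 rose and 1 fell (median log2 fold change 0.50). The share called was 100%, against 55.2% of all tested genes. CSF1 is made in part as a membrane protein that the protease ADAM17 sheds, helped to the cell surface by the iRhom proteins of RHBDF1 and RHBDF2. ADAM17 rose from 1170 ± 61.6 to 1466 ± 25.2 units (log2 0.33, SE 0.039, limma adjusted p = 6.33e-06), RHBDF1 by 0.68 and RHBDF2 by 0.70. The related protease ADAM10 had -0.09 (adjusted p = 0.0377), a call lost without any of controls 1, 2, 5 and 6 or everolimus 1, 2 and 5 (adjusted p = 0.0534 to 0.0997) within the second set (0.311) and after centring on the median log ratio (0.0595). The inhibitor TIMP3 was listed at 0.

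The genes beside each factor on its chromosome were compared, 3 coding genes on each side in the RefSeq order. Next to CSF2, IL3 was listed at 0 in all libraries. On the other side P4HA2, a collagen prolyl hydroxylase, rose from 2089 ± 56.2 to 3238 ± 92.4 units (log2 0.63, SE 0.030, limma adjusted p = 3.8e-10), and the transporter SLC22A4 from 40.1 ± 4.92 to 89.4 ± 8.30 (1.14, SE 0.102, adjusted p = 3.11e-07). PDLIM4, between them, was below the filter, at 0 to 4.99 units in the controls and 4.74 to 13.5 with everolimus. Without the filter its log2 fold change was 1.38 (SE 0.418, limma adjusted p = 0.0163). ACSL6, on the side of IL3, reached at most 3 reads in a library, and MEIKIN was not found. All these rises were small beside the 7.18 of CSF2. Beside CSF1, 4 genes were tested, of which 0 rose and 2 fell. The genes that fell were AHCYL1 (-0.18, adjusted p = 0.000316) and GSTM3 (-0.24, adjusted p = 0.00252, lost within the first library set at 0.148). Beside CSF3, 0 of the 4 tested rose and 2 fell. GSDMA, below the filter with at most 4 reads in a library, had 0.73 without the filter (limma adjusted p = 0.0117). The share called was 100% of the 2 tested beside CSF2 and 50% beside CSF1 and beside CSF3, against 55.2% of all tested genes. NR1D1, a repressor of the circadian clock, fell by 0.94 on the log2 scale (adjusted p = 1.65e-06). THRA, a thyroid hormone receptor, had -0.24 (adjusted p = 0.0212), a call lost without everolimus 4 (0.0553) and within each library set (0.171 and 0.0944), and PSMD3 had -0.04 (adjusted p = 0.160; -0.12 and 0.000603 after quantile normalization, -0.09 and 0.00860 after thinning).

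The genes whose profiles over the 11 libraries lay closest to that of CSF2, measured as the root mean square difference of log2(value + 1) relative to each gene's own control mean, were IL6 (0.499), IL8, now CXCL8 (0.615), TNF (0.803), CCL20 (1.06) and CXCL1 (1.15). All are secreted cytokines or chemokines. TNF rose from 1.94 ± 1.02 units (SD, n = 6) to 187 ± 5.16 (n = 5) and CCL20 from 1.09 ± 0.753 to 126 ± 20.0, and both, like CSF2, reached the filter through the everolimus libraries only. CCL20 had a control mean close to that of CSF2 (1.04 units) and TNF a higher one. IL6, IL8 and CXCL1 had control means of 18.0, 29.5 and 11.2 units. Of the 5, IL8 alone had a larger fold change than CSF2 (7.996 against 7.18). The loose kappaB form GGGNNNNNCC was matched in the 250 bases before the start of each of these 5 genes. It was made from the CSF2 site, so CSF2 was bound to match, and it is common in promoters as given above.

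**Figure D4:**
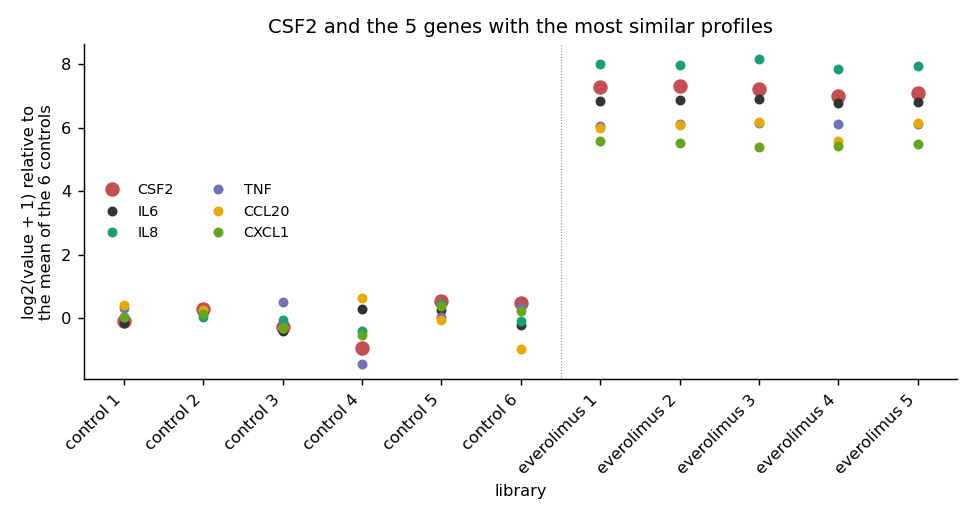
Log2(value + 1) in each of the 11 libraries relative to the mean of the 6 controls, for CSF2 (large red points) and the 5 genes with the most similar profiles. The everolimus libraries of CSF2 lie at about the fitted 7.18, between those of IL8 (7.996) and IL6 (6.84), with TNF (6.11), CCL20 (5.9995) and CXCL1 (5.49) lower.

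Among the 5 closest profiles to CSF1 were those of ZNF697 (0.0586), a zinc finger gene, SSH1 (0.0655), a phosphatase of cofilin, SGK1 (0.0687), a kinase downstream of mTOR complex 2, and ARHGAP31 (0.0704), a GTPase regulator. Their log2 fold changes lay between 1.21 and 1.29, next to the 1.23 of CSF1, and none of these 4 is a cytokine. The distance between CSF1 and CSF2 was 4.03, which placed CSF2 at rank 12665 by likeness to CSF1. The same distance placed CSF1 at rank 246 by likeness to CSF2. This measure depends on the size of a change as well as on its direction. Both factors rose, by sizes far apart.

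**Figure D5:**
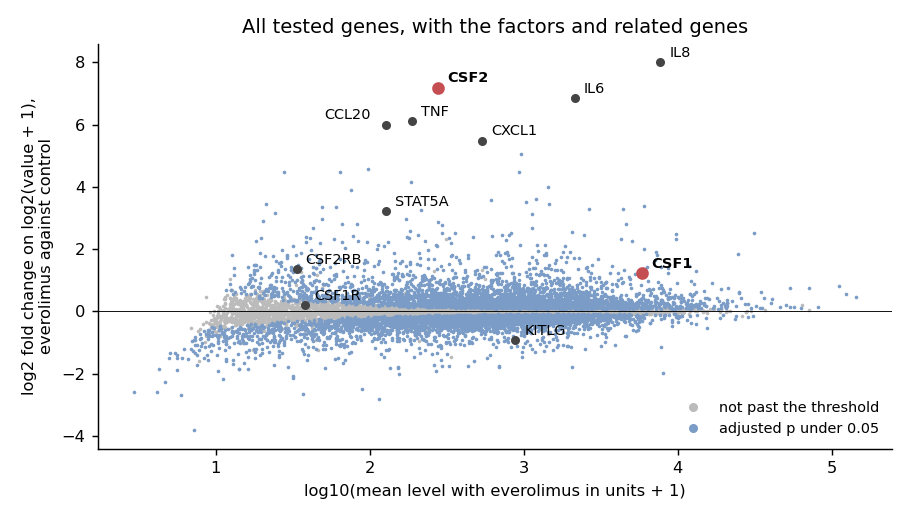
Log2 fold change on log2(value + 1), everolimus against control, against log10 of the mean level with everolimus for all 12668 tested genes, with genes past the threshold in blue, CSF1 and CSF2 in red and related genes in black. CSF2 lies near the upper edge at a moderate level, CSF1 at a high level with a fold change of 1.23, and CSF1R close to 0.

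Tested genes with at most 4 reads in every control library, a limit chosen after the values of CSF2 were seen, numbered 4. The filter fixed their direction, since they could pass it only by high values in all 5 everolimus libraries, and it removed genes that stayed under 10 units, such as GSDMA beside CSF3 (at most 0.803 units in the controls and 1.59 with everolimus). CSF2 had the highest mean with everolimus of these, ahead of CCL20, LTB, a membrane partner of lymphotoxin (26.7 ± 4.79 units, n = 5), and EPPK1, a cytoskeletal linker (20.1 ± 1.19). Among the markers of myeloid cells, which are the usual targets of these factors, PTPRC, SPI1, CD163, LYZ and ELANE reached at most 1 read in a library, and AIF1, FCGR3A and MPO were listed at 0. CD14 reached at most 10 reads. The sum of the 11 myeloid markers was 351 to 441 units in the controls and 338 to 400 with everolimus, most of it CD68, which did not pass the test (log2 fold change -0.07, adjusted p = 0.427). ITGAM, below the filter, went from 0 to 3.38 units in the controls to 2.76 to 7.55 with everolimus (log2 2.004 without the filter, limma adjusted p = 0.000536), and its part in the results was not tested.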

How the data were processed

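RNA-seq of 786-0 cells was analysed, 6 control and 5 everolimus samples grouped by their titles. Per the submitters' processing notes, hg19, Picard 1.64, SAMtools and RSEM were used, with no roles given; for the aligner, the annotation and the use of strand in counting, the answer is not given in the sources used here. Libraries were TruSeq stranded mRNA, per the labels' protocols. The authors deposited 1 table of 20500 entries, a scaled signal in which each column's upper quartile (percentile 75) of values above 0 is about 1000; 0 columns were left unused. The value of 1 read was found from the steps of low values, and between 89.4% and 93.9% of low values (200 reads or fewer) lay within 0.1 of a whole read, which leaves too many fractions for a count model. Intervals and floors cover counting error only.

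Levels were tested with limma 3.58.1 in R 4.3.3 (intensity trend, log2(value + 1)) over 12668 genes with at least 10 units in at least 5 samples, two-sided, adjusted over all of them. A fold change on this scale understates the change of low genes. CSF3, outside the filter, had an exact permutation test. The fit was tested on simulated data in which only genes above the filter in the controls were changed. That test does not cover a gene like CSF2. Library sets were divided at the largest gap in the share of whole values. Of 123 gene symbols in lists and neighbours, 121 were found in the table. The members and lists were chosen with earlier results of these data known. Genes were named by a written rule: the 3 factors, list members, neighbours and the 5 closest profiles; items withheld from the text are not reported here. LTB, EPPK1 and examples within lists were chosen after their values were seen. Alternatives were other pseudocounts (0.1 and 10), filters and scalings, thinning to 14230690 reads, library sets, a replicate block and leaving out each library. RefSeq sequences and gene order are of GRCh38.p14.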

Additional observations from a re-analysis of the deposited data

Results flagged for a closer look

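Of 121 groups of library values tested for a library far from the others, 9 were flagged, where chance gives about 1 in 20. Among the 3 factors the flag fell on CSF3, whose single read made control 1 (0.8026 units) stand apart from 5 controls at 0. The ligand IL34 was flagged for everolimus 5 (16.3 units, the next library at 8.76), and the cytokine TNF for control 4 (0 units, the others from 1.82). STAT5A was flagged for control 5 (20.4 units, the next at 12.5), which lies far below every everolimus library. JUNB was flagged for everolimus 5 (2257 units) and PSMD3 for everolimus 4 (4671 units). Control 4 was also low for SP1 (1558 units), TIAL1 (2105 units) and ADAM17 (1046 units). It had the fewest reads of all libraries (14230690), with 1 read worth 1.05 units.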

How the results depend on the processing

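CSF1 and CSF2 kept their direction and their call in all 23 alternatives, CSF1 between 1.16 and 1.27 on the log2 scale and CSF2 between 4.70 (pseudocount 10) and 8.40 (pseudocount 0.1). Among the alternatives, the fit of numbers 1 to 5 with no block was the same as leaving out control 6, and not a separate check. A filter leaves a gene's fold change as it is. Leaving out each library in turn gave 1.21 to 1.26 for CSF1, 6.99 to 7.29 for CSF2 and -0.17 to 0 for CSF3. CSF3 had values from -0.53 to 0 in the 19 alternatives that gave one, and 1 read in all could not produce a call in any of them. After centring on the median log ratio (exact permutation p = 0.606) its values also differed by the shift given to each library. No value came from the replicate block, the same samples with no block, the stricter filter or the fit with the set as a covariate. The number of genes called ranged from 5482 (first library set) to 7270 (quantile normalization), against 6997 as reported, and from 6431 to 7104 with each library left out. Of the calls, 3528 were higher and 3469 lower as reported, 3249 and 4021 after quantile normalization, and 2816 and 3897 after thinning. The labels do not say what the sample numbers mark, so these were not taken to pair the samples. Same-numbered samples deviated together in numbers 1, 2, 4 and 5 (correlations 0.603, 0.422, 0.336 and 0.351) but not in 3 (-0.508). Control 3 and everolimus 3 lay in different library sets, while both samples of numbers 1, 2, 4 and 5 lay in the same set. The correlations therefore cannot tell pairing from the library sets. With the replicate block CSF1 had 1.21 and CSF2 7.27, and 6264 genes were called, against 6673 in the same samples with no block, a comparison added after seeing the data. Not called under the block were FLT3LG (adjusted p = 0.0522, against 0.0302 in the same samples with no block), EPOR (0.0995, 0.0535), CEBPD (0.0803, 0.0924) and ADAM10 (0.126, 0.0673), and left 10 receptor signalling genes called higher and 1 lower. For 54 other named genes, 1236 comparisons held 1184 with the same call, 46 that lost it, 6 that gained it and 0 that reversed. These counts hold both the fit of numbers 1 to 5 with no block and the identical fit without control 6. What depth limits is CSF3, CSF2 in the controls, and the genes near 0.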
